A study of Homo sapiens with 6 samples.

Results

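The Krüppel-like factors (KLFs) are zinc finger transcription factors that bind GC-rich and CACCC-type sequences, and the positions of binding near 7 of their genes (KLF5, KLF3, KLF4, KLF6, KLF9, KLF10 and KLF13) were taken from 3 deposited lists of chromatin immunoprecipitation sequencing (ChIP-seq) peaks. A peak belonged to a gene when its midpoint lay within 100 kb of the gene's span, a rule that uses position alone. Such windows can hold other genes, and peaks were not placed relative to those. In all, 72 of 74158 listed peaks met this rule. They comprised 6 of 1510 peaks for KLF5 in Calu-3, 8 of 3262 for KLF5 in 16HBE14o- and 58 of 69386 for CEBPB in Calu-3. Calu-3 is a line from a human lung adenocarcinoma and 16HBE14o- is an immortalised line of human bronchial epithelium, and both were grown untreated in DMEM with 10% FBS. Each of the 3 groups had 2 samples, combined by the authors into 1 list, so no value has an error between samples and no test between groups could be made. A rabbit anti-KLF5 antibody was used for the first Calu-3 KLF5 sample and a Santa Cruz antibody for the second and for both 16HBE14o- samples, so antibody and cell line cannot be told apart. CEBPB, precipitated with another Santa Cruz antibody, was profiled in Calu-3 alone among the samples used here, and no expression was measured in them, so the identity of the lines and the levels of the factors were not checked.

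Members of the KLF family share C-terminal zinc fingers and differ in the rest of the protein, so that several members can bind the same sequence, some as activators and others as repressors. Their genes are known to be regulated by one another. KLF5 is an activator of dividing epithelial cells and KLF4 promotes epithelial differentiation, whereas KLF3 recruits the corepressor CtBP, and KLF9, KLF10 and KLF13 recruit SIN3A. CEBPB is a basic leucine zipper factor of acute-phase and inflammatory transcription.

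KLF5 peaks were listed near KLF3, KLF13 and KLF4, and neither line had one within 100 kb of the KLF5 gene itself. CEBPB peaks were listed near all 7 genes, and 3 of the 70 strongest CEBPB peaks of the genome lay inside the KLF5 gene, a count made after the ranks had been seen. Promoter sequences are shown for KLF4 and KLF13, where a 16HBE14o- KLF5 peak lay about 1 kb from the gene start, and for KLF5, the gene of the factor itself. They are the 250 bases before the start, 5′ to 3′, from RefSeq on GRCh38.p14, whereas all peak positions are on hg19, so whether a peak covers a printed base is not known. Capitals mark matches of CCNCNCCC, a pattern of KLF type, on either strand, overlapping matches being joined. For KLF5 the second of its 2 RefSeq starts is used, as the one nearer to strong CEBPB peaks, and KLF5 and KLF13 were added to KLF4 after the values had been seen.
KLF4 (chr9:107489770-107490019, minus strand): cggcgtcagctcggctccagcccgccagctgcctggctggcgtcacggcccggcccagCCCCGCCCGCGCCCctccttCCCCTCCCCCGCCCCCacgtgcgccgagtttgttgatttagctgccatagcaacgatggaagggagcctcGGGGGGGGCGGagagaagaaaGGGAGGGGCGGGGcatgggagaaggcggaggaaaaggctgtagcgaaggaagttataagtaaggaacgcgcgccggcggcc
KLF13 (chr15:31326585-31326834, plus strand): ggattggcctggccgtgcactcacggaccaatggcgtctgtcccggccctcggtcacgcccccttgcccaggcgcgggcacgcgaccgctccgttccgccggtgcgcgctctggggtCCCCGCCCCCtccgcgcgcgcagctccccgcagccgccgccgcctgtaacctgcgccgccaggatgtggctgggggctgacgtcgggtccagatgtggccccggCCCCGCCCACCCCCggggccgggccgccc
KLF5 (chr13:73058755-73059004, plus strand): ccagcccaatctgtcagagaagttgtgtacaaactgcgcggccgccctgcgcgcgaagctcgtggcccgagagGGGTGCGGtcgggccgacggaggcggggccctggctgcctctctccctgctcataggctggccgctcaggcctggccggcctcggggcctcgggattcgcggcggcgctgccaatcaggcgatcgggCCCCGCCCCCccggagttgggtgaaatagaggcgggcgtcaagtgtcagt
The KLF4 window held 10 overlapping or separate matches, KLF13 held 4 and this KLF5 window held 3. At least 1 match was present in 53.4% of all 35116 RefSeq promoter windows of that length, and at least as many as in KLF4 in 0.948% of them. For the counts of KLF13 and this KLF5 window the shares were 13.7% and 21.4%. RefSeq sequence was matched for 5 of the 7 genes (not KLF3 or KLF10). The KLF6 window had 6 matches, and 5.57% of all windows had at least as many, while the KLF9 window and the one before the first KLF5 start had 0. TTGCNNAA, a pattern of CEBP type, was in none of these 6 windows and in 9.05% of all windows. GC content was 69.2% in the KLF4 window, 70.8% in this KLF5 window, 72.4% for KLF6 and 78.8% for KLF13. It was 32.4% for KLF9 and 40.8% before the first KLF5 start. A GC-rich pattern is met more often in GC-rich sequence, and whether GC content accounts for these counts was not tested.

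As a background for the counts, the genome was divided into 13358 consecutive windows of 224 kb, the mean length of the 7 gene windows, which ran from 206 to 252 kb. Calu-3 KLF5 peaks were listed at 2 of the 7 genes, compared with 8.01% of all windows. In 16HBE14o- 3 of the 7 genes had a peak, compared with 13.8% of windows. The same 2 genes, KLF3 and KLF13, had a peak of both lines, which held for 3.71% of windows. CEBPB peaks were listed at 7 of 7 genes, but 86.8% of all windows had one, so that count is near the background. The median genome window held 5 CEBPB peaks. The windows of the genome include stretches without genes, and the KLF loci were not tested against other gene loci. The 6 Calu-3 KLF5 peaks were 0.397% of their list (exact 95% interval 0.146 to 0.863), the 8 16HBE14o- peaks 0.245% (0.106 to 0.483) and the 58 CEBPB peaks 0.0836% (0.0635 to 0.108). All such intervals cover counting error only.

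**Figure D1:**
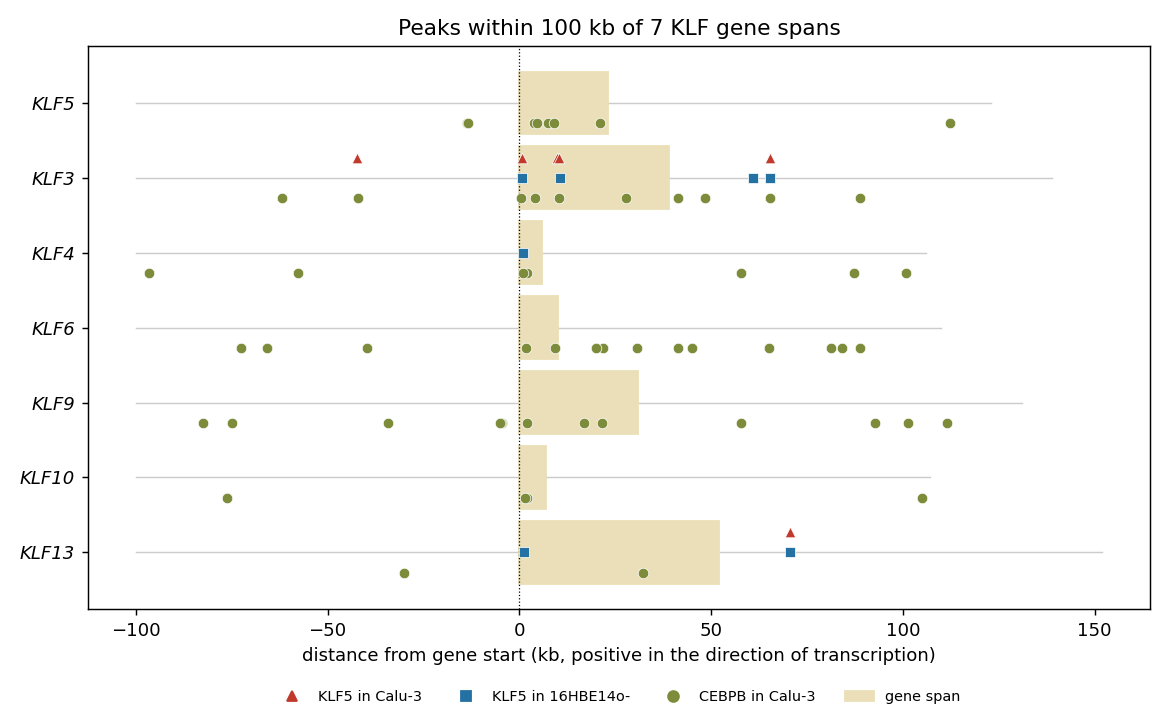
Positions of the peaks of the 3 lists (triangles, squares and circles) near each of 7 KLF genes, against the distance from the gene start in kb, with the gene span shaded. KLF5 peaks appear in the rows of KLF3, KLF4 and KLF13 and are absent from the other 4 rows, while circles for CEBPB appear in all 7.

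The first question was whether KLF5 is listed at its own gene. KLF5 (hg19 chromosome 13, 73629 to 73652 kb) had no KLF5 peak in its window in either line. The nearest Calu-3 KLF5 peak lay 22605 kb from the span and the nearest 16HBE14o- peak 2627 kb from it. The chromosome as a whole held few, 12 Calu-3 KLF5 peaks (0.795% of the list) and 39 in 16HBE14o- (1.20%), and CEBPB likewise had 1.04% of its list there. Sequencing depth is unknown and the lists hold only peaks that passed the authors' filter, so a missing peak does not show that KLF5 was not bound there.

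CEBPB had 8 peaks in the KLF5 window, 5 of them inside the gene, and a number of at least 8 is common, being found in 25.8% of genome windows. The highest, at 73635927 to 73636925, had a signal of 39.6 and ranked 7 among 69386 CEBPB peaks, and with 999 bp it was the widest of the 8. It lay 7.43 kb after the start of the span. The next, at 73633404 to 73633789, had a signal of 30.2 and rank 26. Another inside the gene, at 73649777 to 73650093, had a signal of 27.9 and rank 45, near the far end of the span. These 3 peaks stretched over 16690 bp and each was in the top 0.1% of the list by signal (70 peaks). Only 1 of the 13358 windows of the genome (0.00749%) held 3 such peaks, and it was the window with KLF5. That count was made after the ranks had been seen, with cutoffs that the KLF5 peaks already met. The KLF5 window meeting them is thus no separate result, and only 1 placement of the windows was counted.

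RefSeq gives KLF5 a second start 4029 bp after the first. The CEBPB peak of rank 26 had its midpoint 4.60 kb after the start of the hg19 span, and the peak nearest to that start, at 73632702 to 73632916, was 3.81 kb after it with a signal of 3.17 at percentile 47.7. Gene spans are known here to 1 kb, so these peaks and the second start cannot be placed more closely. Of the other 4 CEBPB peaks, those 13.3 and 13.7 kb upstream were at percentiles 94.1 and 76.3, the one 8.99 kb after the start at 91.7 and the one 112.4 kb after it at 92.7. The KLF5 window thus held 6 CEBPB peaks in the top 10% of the list, compared with 1 to 4 at each of the other 6 genes. The share of genome windows with as many was not counted, so whether 6 is unusual is not known.

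**Figure D2:**
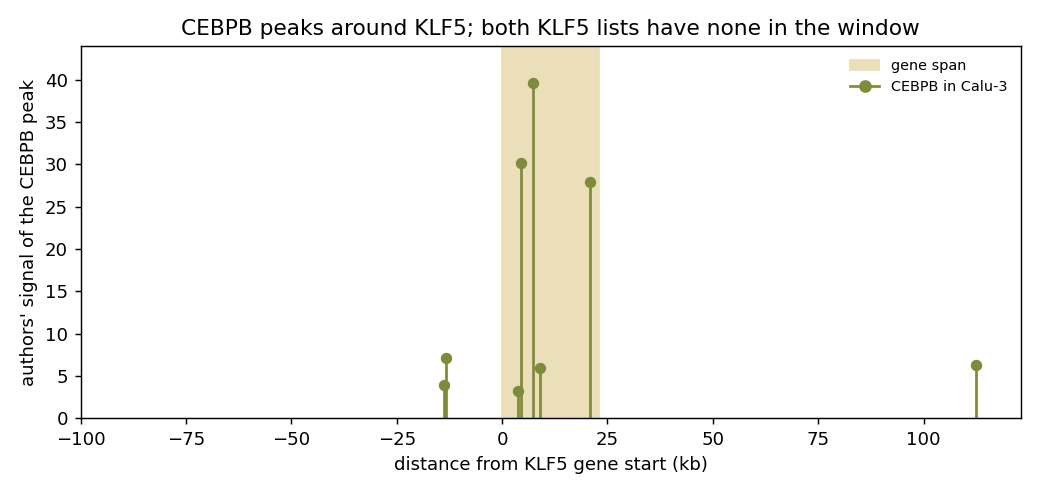
Signal of the 8 CEBPB peaks in Calu-3 (circles on stems) against the distance from the KLF5 gene start in kb, with the gene span shaded. The 3 highest, at 39.6, 30.2 and 27.9, lie inside the gene, and no KLF5 peak of either line falls in the window.

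KLF4 (chromosome 9, 110247 to 110253 kb, minus strand), whose product is known to promote differentiation of epithelia, had 1 KLF5 peak, in 16HBE14o- only. It lay at 110251831 to 110252174, about 1 kb inside the upper end of the span, which holds the gene start. Spans are known here to 1 kb, so whether the start lies under the peak is not known. The signal of the peak was 23.8, at percentile 18.6 of the list, and its −log10 q-value of 1.23 was short of a q-value of 0.05. It was therefore among the weaker entries, and it is absent from the list when that threshold is applied. A CEBPB peak of Calu-3 at 110252039 to 110252230 shared 136 bp with it, with a signal of 2.95 at percentile 33.2, and was the CEBPB peak nearest to the gene start. In Calu-3 the nearest KLF5 peak was 1089 kb from the span. The other 6 CEBPB peaks of the window ranged from percentile 18.0 to 96.8, and the highest, at 110152015 to 110152341, was 100.8 kb after the gene start.

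KLF3 (chromosome 4, 38665 to 38704 kb, plus strand), a gene of a repressor, held most of the KLF5 peaks, 5 of the 6 in Calu-3 and 5 of the 8 in 16HBE14o-. At least 5 peaks were found in 0.157% of genome windows for Calu-3 and in 0.711% for 16HBE14o-. Only 6 of the windows reached that number in both lines, the one with KLF3 among them. The cutoff of 5 was taken from the count at KLF3 itself, so KLF3 meeting it is no separate result. The number includes neighbouring entries, and with entries within 500 bp merged KLF3 had 4 in each line. No background was counted for merged entries. At a q-value of 0.05 or less it had 5 in Calu-3 and 4 in 16HBE14o-. Without the KLF3 window, the density of Calu-3 KLF5 peaks at the other 6 genes was 0.752 per Mb, compared with 3.83 with it and 0.505 over the genome. For 16HBE14o- the corresponding densities were 2.26, 5.10 and 1.09 per Mb. The KLF5 peaks around KLF3 fell into 5 places.

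At the gene start, a Calu-3 KLF5 peak at 38665552 to 38665831 had a signal of 43.8, at percentile 88.5. Over it were 2 overlapping 16HBE14o- entries, at 38665415 to 38665758 (signal 25.0, percentile 22.9) and at 38665623 to 38665966 (signal 8.89, percentile 0.490). The site was thus among the stronger entries of the Calu-3 list and among the weaker ones of the 16HBE14o- list, although ranks from lists of different lengths do not measure a difference in binding. A CEBPB peak at 38665297 to 38665421, at percentile 47.7, ended 131 bp before the Calu-3 KLF5 peak and shared 7 bp with the first 16HBE14o- entry. It was the CEBPB peak nearest to the KLF3 start.

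About 10 kb into the gene, Calu-3 had 2 KLF5 peaks next to each other. The first, at 38674784 to 38675063 (signal 32.4, percentile 70.3), overlapped no peak of the other lists, and the nearest 16HBE14o- peak began 262 bp away. The second, at 38675308 to 38675587 (signal 42.6, percentile 87.8), shared 263 bp with a 16HBE14o- KLF5 peak at 38675325 to 38675668 (signal 27.96, percentile 38.8). CEBPB was listed at the same place, at 38675286 to 38675544, with a signal of 10.6 at percentile 97.5. The summits of CEBPB and Calu-3 KLF5 were 11 bp apart there, the closest of the KLF loci.

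Beyond the gene, the KLF5 peak with the highest percentile at any of the 7 genes was found in 16HBE14o- alone, at 38725891 to 38726234, 61.1 kb after the KLF3 start. Its signal was 56.5, at percentile 94.4, and the nearest Calu-3 KLF5 peak was 4001 bp away. That Calu-3 peak, at 38730235 to 38730514 (signal 43.6, percentile 88.3), lay wholly within a 16HBE14o- peak at 38730193 to 38730536 (signal 33.3, percentile 64.0), with midpoints 10 bp apart. CEBPB overlapped both by 187 bp, at 38730252 to 38730438 and percentile 73.7. All 3 lists thus met at 2 places around KLF3, this one and the one about 10 kb into the gene.

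Upstream of KLF3, a Calu-3 KLF5 peak at 38622605 to 38622884 was 42.3 kb from the start, with a signal of 21.1 at percentile 16.2. The CEBPB peak over it, at 38622614 to 38623041, shared 271 bp with it and was at percentile 99.0 (signal 14.6), the highest CEBPB peak of the window. The place was therefore strong for CEBPB and weak for KLF5 within their lists, and the nearest 16HBE14o- KLF5 peak was 42531 bp away.

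**Figure D3:**
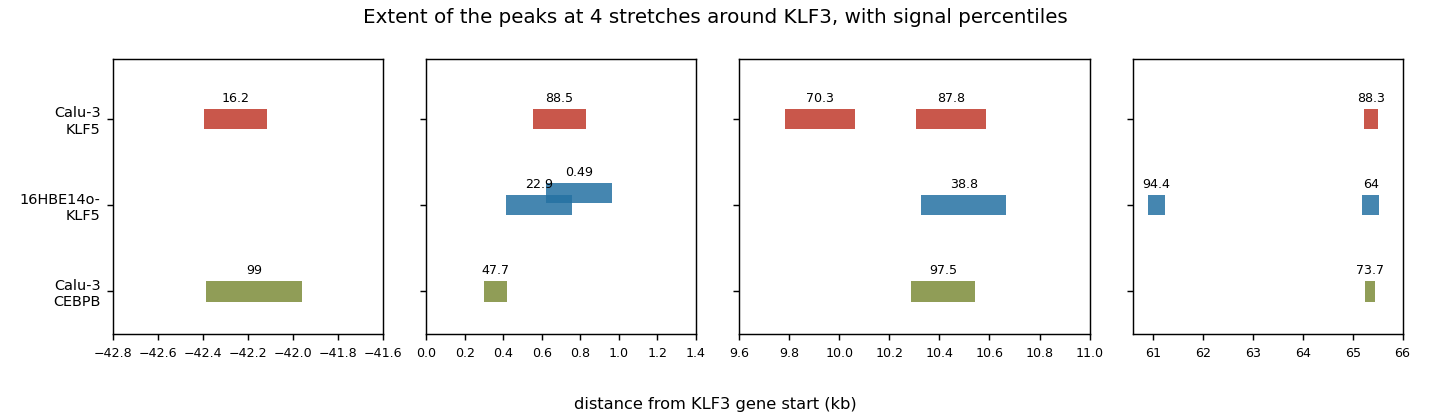
Extent of the KLF5 and CEBPB peaks (bars) at 4 stretches around KLF3, against the distance from its start in kb, with the signal percentile of each peak above its bar; the 4 panels differ in scale. At the start the Calu-3 KLF5 peak stands at 88.5 and the 16HBE14o- entries at 22.9 and 0.490, and all 3 lists have a bar near 10.4 and 65.4 kb.

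KLF13 (chromosome 15, 31619 to 31671 kb, plus strand), known as a regulator of chemokine transcription in lymphocytes, had 1 KLF5 peak in Calu-3 and 2 in 16HBE14o-. The Calu-3 peak at 31689320 to 31689599 (signal 26.3, percentile 45.4) shared 257 bp with a 16HBE14o- peak at 31689343 to 31689686 (signal 50.9, percentile 91.7), 70.5 kb after the gene start. Here the percentile was higher in the 16HBE14o- list, whereas it was higher in the Calu-3 list for the 4 overlapping pairs of KLF3. Of those pairs, 2 share 1 Calu-3 peak, the one at the KLF3 start. The other 16HBE14o- peak, at 31620025 to 31620368 (signal 30.5, percentile 51.6), was 1.20 kb after the gene start. CEBPB had 2 peaks in this window, at 31588760 to 31589023 (percentile 95.2) and at 31651299 to 31651423 (percentile 47.7), none of them at a KLF5 peak. The former was both the highest CEBPB peak and the one nearest to the start, 30.1 kb from it. The nearest CEBPB peak was 37897 bp from the Calu-3 KLF5 peak, and 0 of the 3 KLF5 entries at KLF13 overlapped CEBPB.

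Counted over the 7 genes, 4 of the 6 Calu-3 KLF5 peaks overlapped a 16HBE14o- KLF5 peak (66.7%, exact 95% interval 22.3 to 95.7), and 3 of these were at KLF3. Over the whole Calu-3 list the share was 23.6%. In the other direction 5 of 8 16HBE14o- peaks were shared (62.5%, 24.5 to 91.5), against 11.3% of the list. Shared peaks made 5 overlapping pairs with midpoints 10 to 105 bp apart, both 16HBE14o- entries over the Calu-3 peak at the KLF3 start being counted. Overlap with CEBPB was found for 3 of 6 Calu-3 peaks (50%, 11.8 to 88.2), all at KLF3, near the 43.7% of the whole list. It was found for 4 of 8 16HBE14o- peaks (50%, 15.7 to 84.3), against 22.4% of that list, and 1 of these rested on 7 bp. Seen from CEBPB, 3 of the 58 peaks overlapped a Calu-3 KLF5 peak (5.17%, 1.08 to 14.4) and 4 overlapped a 16HBE14o- one (6.90%, 1.91 to 16.7), compared with 0.938% and 1.03% of the CEBPB list. Peaks at 1 gene are not independent of each other, and the intervals do not allow for that.

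At the remaining 3 genes CEBPB alone was listed. KLF6 (chromosome 10, 3818 to 3828 kb, minus strand), which is induced by injury in many tissues, had 14 CEBPB peaks, the most of the 7 genes, and 3.86% of genome windows held as many. Its highest, at 3762747 to 3763019 (signal 11.4, percentile 97.9), was 65.1 kb after the start. The one nearest to the start, at 3826066 to 3826276 (signal 6.33, percentile 92.6), was 1.83 kb after it. The nearest KLF5 peaks were 1762 kb away in Calu-3 and 184.7 kb away in 16HBE14o-.

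KLF9 (chromosome 9, 72999 to 73030 kb, minus strand), known as a gene induced by glucocorticoids, had 13 CEBPB peaks, a number reached in 5.55% of windows. A group of 3 lay 4.41 to 5.11 kb upstream of the start, at percentiles 96.9, 59.1 and 94.3. The highest of the window, at 72918287 to 72918479 (signal 10.1, percentile 97.2), was 111.6 kb after the start. By RefSeq order the next protein-coding gene on that side is SMC5, and whether the peak lies within SMC5 was not determined. Nearest to the start, at 1.88 kb after it, was a weak one at 73028061 to 73028185 (percentile 4.61). The nearest KLF5 peaks were 5958 kb away in Calu-3 and 624.1 kb away in 16HBE14o-.

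KLF10 (chromosome 8, 103661 to 103668 kb, minus strand), first known as an early gene of the TGF-β response, had 4 CEBPB peaks. Its highest, at 103665780 to 103666010 (signal 7.41, percentile 94.5), was 2.11 kb after the start, and a weaker one at 103666340 to 103666464 (percentile 40.8) was nearer, at 1.60 kb. Of the 4, only the highest reached a q-value of 0.05 or less, and 4 is below the genome median of 5. The nearest KLF5 peaks were 1194 kb away in Calu-3 and 133.6 kb away in 16HBE14o-.

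In signal, the CEBPB peaks near the KLF genes ran from percentile 2.11 to 99.99 with a median of 60.7, and 22 of the 58 were in the top 10% of the list. Each of the 7 genes had at least 1 peak in that top class, whereas 32.6% of genome windows did. A q-value of 0.05 or less was reached by 33 of the 58 (56.9%, exact 95% interval 43.2 to 69.8), against 46.3% of the list. By position, 19 of the 58 were inside a gene span (32.8%), as were 3 of 6 Calu-3 and 5 of 8 16HBE14o- KLF5 peaks. Spans made up 10.7% of the length of the windows. The share of each whole list inside gene spans was not counted, so these values are no result about the KLF genes. The Calu-3 KLF5 peaks ran from percentile 16.2 to 88.5 with a median of 79.1 and none in the top 10%, and the 16HBE14o- peaks from 0.490 to 94.4 with a median of 45.2 and 2 in the top 10%.

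**Figure D4:**
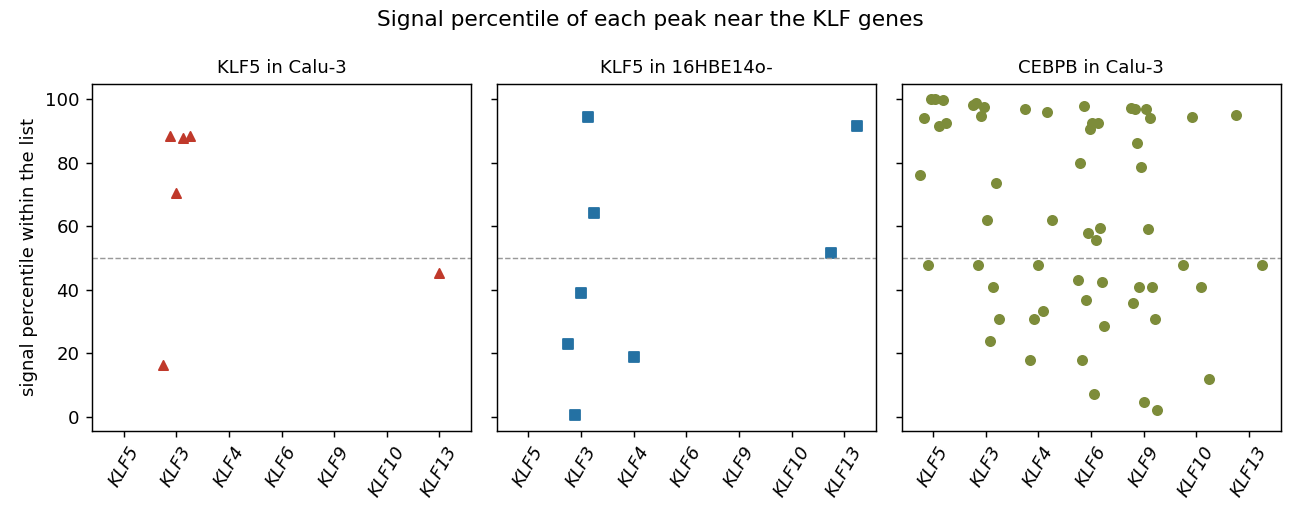
Signal percentile of each peak within its own list (100 for the highest), by gene, in 1 panel per list, with a dashed line at 50. In the CEBPB panel each of the 7 genes has a point above 90, and in the KLF5 panels points appear for KLF3 and KLF13 in both lines and for KLF4 in 16HBE14o- alone.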

How the data were processed

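The data were 3 peak lists on hg19, per the file headers, each made from both samples of its group, per the series' design text. Per the file headers, all lists had passed a filter on the irreproducible discovery rate (IDR). No name of an aligner, caller or control is given in the sources used here. Depth is unknown. For each peak the authors deposited a signal, whose normalization is not stated, a score and a −log10 q-value. Signals were ranked within a list, as percentiles, and scores entered no result. Of the Calu-3 KLF5 peaks 1499 were 280 bp wide, and of the 16HBE14o- KLF5 peaks 3244 were 344 bp wide. CEBPB peaks varied in width, and the most frequent width, 125 bp, was that of 19184 of the 69386. The CEBPB list also came in another peak format than the KLF5 lists. The KLF5 and CEBPB lists may thus come from unlike peak procedures, which limits any comparison of their counts, overlaps and q-values.

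Gene spans on hg19 came to 1 kb with the choice of genes, and a gene start is the span's end on the transcribed side. Distances from a start thus hold to about 1 kb only, although more digits are given. Strands came from the RefSeq promoter table, except those of KLF3 (plus) and KLF10 (minus), which are general knowledge. Distances from a start and upstream or downstream positions at these 2 genes rest on them. Members and lists were chosen with earlier results of these data known. Peaks overlapped when they shared at least 1 bp, and distances between peaks are between nearest bases. Background windows ran from the first to the last listed base of each chromosome. Intervals are exact binomial (Clopper-Pearson). No p-value was computed, because each group is 1 list. All 14 KLF5 peaks were named, and for CEBPB each gene's highest peak, the one nearest to the start and any that overlapped KLF5. The other CEBPB peaks of the KLF5 gene and the group upstream of KLF9 were added after the values had been seen. A planned comparison of protein sequences was not run. Overlap and window counts were tested on simulated data. Python 3.11.15, numpy 2.4.6, scipy 1.17.1, pandas 2.3.3 and matplotlib 3.10.9 were used.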

Additional observations from a re-analysis of the deposited data

How the results depend on the processing

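Of 74 values under 10 alternatives, 53 were within 1.5 times the reported one. Some of these could not differ. The Calu-3 KLF5 list is the shortest, so a limit of 1510 peaks leaves its counts unchanged. CEBPB was already listed at all 7 genes, so a wider window could add none. With the 50% of each list of higher signal, KLF5 peaks were listed at 1 gene in Calu-3, 16HBE14o- had 4 KLF5 peaks, CEBPB had 33, 1 KLF5 peak of each line was shared, and 1 of 16HBE14o- met CEBPB. With each list limited to 1510 peaks, 16HBE14o- had 3 KLF5 peaks, CEBPB had 6 at 3 genes, 2 KLF5 peaks of each line were shared, and 1 Calu-3 and 0 16HBE14o- KLF5 peaks met CEBPB. At a q-value of 0.05 or less, CEBPB had 33 peaks and 2 of 16HBE14o- KLF5 met CEBPB. Windows of 50 and 200 kb held 38 and 94 CEBPB peaks, and at 200 kb 5 genes had a 16HBE14o- KLF5 peak. No background was counted for these 2 widths. With summits within 100 bp, 3 16HBE14o- peaks were shared and 2 met CEBPB. With gaps up to 1000 bp, 5 Calu-3 peaks met CEBPB. The KLF5 gene had 0 KLF5 peaks in both lists at 50, 200 and 500 kb, the nearest of either list being 2627 kb from the span. The filters only remove or join entries, so they could not have raised that count. No paired analysis was possible because each list combines both samples of its group. For the same reason no sample could be left out, and unknown depth limits what a missing peak shows.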

Other observations

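Within 500 kb of the spans, Calu-3 KLF5 peaks were listed near the same genes as within 100 kb, with 6 at KLF3 and 1 at KLF13. In 16HBE14o- the wider windows held 8 KLF5 peaks at KLF3, 3 at KLF13 and 1 each at KLF4, KLF6 and KLF10. KLF5 and KLF9 had none in either line at that distance. CEBPB peaks within 500 kb numbered 48 at KLF9, 38 at KLF6, 29 at KLF3, 22 at KLF4, 20 at KLF5, 17 at KLF10 and 7 at KLF13. No background was counted for windows of that width, so none of these counts is a result about the genes. CEBPB density over the 7 windows of 100 kb was 37.0 per Mb, against 23.2 over the genome, and ranged from 7.94 at KLF13 to 66.7 at KLF6.

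KLF13 had the fewest CEBPB peaks of the 7 genes, and 30.3% of genome windows held 2 or fewer.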
